A study of Mus musculus with 9 samples.

Results

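The AP-1 family genes Atf3, Jun, Junb, Jund, Fos, Fosb, Fosl1, Fosl2 and Maff were described in TAMH cells, a mouse hepatocyte line derived from animals transgenic for TGF-alpha. The genes were chosen by symbol, with earlier results of these data known. Every probe set that the platform annotation gives to 1 of them was used, which were 11 probe sets for 9 genes among 12393 named genes. Jun and Fosl1 have 2 probe sets each and the others have 1. Cells of this line, labelled C57BL/6 and liver, were kept in 2 mM acetaminophen (APAP), in 2 mM of its meta regioisomer (AMAP) or in control medium for 2, 6 or 24 h. All 9 arrays are of this 1 line, with 1 array per treatment and time, so a difference between 2 arrays has no replicate check and carries no p. The compounds differ in the position of the ring hydroxyl, para in APAP and meta in AMAP, and the study's title names AMAP as the less hepatotoxic of the pair.

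AP-1 is a dimeric transcription factor built from proteins with a basic region and a leucine zipper. Jun proteins pair with each other or with Fos proteins and bind DNA at the TPA response element, while pairs with ATF proteins prefer the cyclic AMP response element. Several of these genes are immediate-early genes, transcribed within minutes of growth factor or stress kinase signalling, and their mRNAs are short-lived. In liver, Jun is known for its part in hepatocyte survival and regeneration and Atf3 as a gene induced by many kinds of injury.

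Atf3, Jun and Fos, which were high on the same arrays, are shown with the sequence before their transcription start, so that some elements known from their regulation can be seen. The 250 bases before the annotated start of Atf3, Jun and Fos are given 5′ to 3′ from RefSeq, build GRCm38.p6. Capitals mark the C/EBP-ATF element and a CRE half-site in Atf3, the elements called jun2 and jun1 in Jun, and a CRE half-site and the TATA box in Fos.
Atf3, chr1:191183334-191183583, minus strand: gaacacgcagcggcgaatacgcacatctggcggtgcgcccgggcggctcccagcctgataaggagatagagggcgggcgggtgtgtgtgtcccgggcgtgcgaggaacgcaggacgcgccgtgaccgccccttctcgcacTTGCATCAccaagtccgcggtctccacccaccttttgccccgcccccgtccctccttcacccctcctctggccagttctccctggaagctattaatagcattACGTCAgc
Jun, chr4:95052223-95052472, minus strand: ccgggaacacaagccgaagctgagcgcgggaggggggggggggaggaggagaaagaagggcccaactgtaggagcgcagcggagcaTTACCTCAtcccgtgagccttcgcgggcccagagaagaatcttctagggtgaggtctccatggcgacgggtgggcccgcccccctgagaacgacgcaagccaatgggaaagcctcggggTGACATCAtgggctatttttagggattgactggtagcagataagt
Fos, chr12:85473640-85473889, plus strand: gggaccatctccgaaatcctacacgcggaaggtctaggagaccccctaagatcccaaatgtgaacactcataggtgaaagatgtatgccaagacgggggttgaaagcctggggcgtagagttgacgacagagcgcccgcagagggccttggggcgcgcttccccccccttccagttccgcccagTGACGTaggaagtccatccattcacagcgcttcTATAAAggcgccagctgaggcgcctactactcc

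The motifs were searched on both strands in the 250 bases before 32851 annotated starts. Of the 9 genes 8, all but Fosl1, had at least 1 such window. The C/EBP-ATF element, TGATGCAA, stood in 0.791% of all windows and among these genes in that of Atf3. The CRE half-site TGACGT stood in 6.47% of windows and in those of Atf3, Fos and Maff, where it is part of the full element. The letters of the jun1 element, TGACATCA, were in 2.93% of windows and those of jun2, TTACCTCA, in 0.728%. Jun held both, and the window of the third Maff start held the jun1 letters. The full CRE, TGACGTCA, was in 1.55% of windows, among them that of the second of 3 Maff starts, shown here because Maff was also higher with AMAP at 2 h, with the CRE in capitals.
Maff, chr15:79347480-79347509, plus strand: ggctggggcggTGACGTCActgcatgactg
The TPA response element TGACTCA, the CArG box and the p53 half-site had no match in the windows of these genes, against 4.46%, 1.47% and 7.13% of all windows. Sequence more than 250 bases before a start was not searched, so elements that lie there are missed. The GC box GGGCGG, in 32.7% of all windows, stood in those of Atf3, Jun, Fos, Fosb, Fosl2 and Maff. The half-site, jun1 and jun2 letters were chosen after these sequences had been seen. A match is a run of letters and does not show that a factor was bound in these cells.

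**Figure D1:**
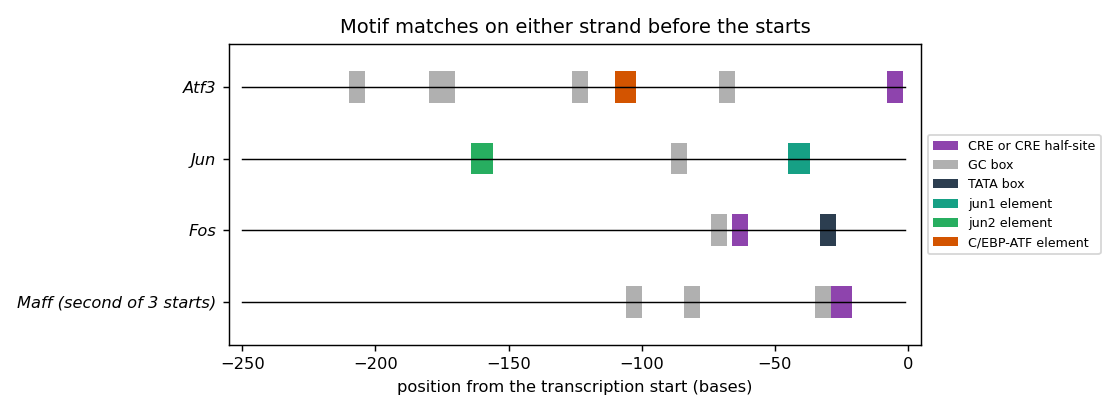
Positions of motif matches on either strand in the 250 bases before the starts of Atf3, Jun, Fos and the second Maff start, in bases from the start. The C/EBP-ATF element of Atf3 lies at -110 to -103, the 2 elements of Jun at -164 to -157 and -45 to -38, the half-site of Fos at -66 to -61 and the CRE of Maff at -29 to -22.

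The arrays were alike in their median, but not in all measures. The lower quartile of the probe-set values lay between 3.81 and 3.92 on both 24 h arrays of treated cells and the 6 h array of APAP, and between 3.50 and 3.63 on the other 6. For the bacterial control RNA dap, the middle minus the 3′ signal was -1.94 to -1.58 log2 on the same 3 arrays and -0.60 to -0.44 elsewhere. A further pair of dap probe sets did not set them apart, at -1.03 to -0.42 on these 3 and -0.80 to -0.61 on the others. The 5′ minus 3′ difference of Gapdh, a sign of RNA integrity, was 0.05 and 0.10 in APAP at 6 and 24 h and 0.21 to 0.29 on the other 7 arrays, AMAP at 24 h included. That of Actb did not go the same way. It was -0.08 and -0.28 in APAP at 6 and 24 h, -0.13 in AMAP at 24 h and -0.470 to -0.265 on the other 6. The sources used here do not say whether all arrays were normalized in 1 run, and the part of these features in differences that involve the 3 arrays was not tested. Of the hepatocyte markers on the array, 7 of 8 were expressed, meaning that their mean over the arrays reached 5.66, which is the median among the means of all probe sets. Cyp2e1 was the exception, at 2.96 to 3.42. Of macrophage markers 1 of 6 was expressed, Cd14, of stellate cell and fibroblast markers 0 of 7 and of endothelial markers 0 of 5. Of cholangiocyte markers 3 of 4 were, Epcam being the exception.

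Values below are log2 expression values. Of the 9 genes, 7 were expressed. Fos had a mean of 5.58 and Fosb lay between 2.71 and 3.98 on all 9 arrays, where the method narrows differences. A gene is counted as 2-fold apart where the log2 difference reaches 1 and the higher array reaches 5.65, the median over every value of the table. Fos enters these counts only through the arrays on which it was high. In the comparisons with control at 2 h, Fosl1 and Fosl2 also reach 5.65 only through the treated array. They read 5.45 and 5.49 in control medium.

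Atf3, Jun and Fos were high on the same 3 arrays, those of AMAP at 2 h and of both compounds at 24 h, and low on the other 6. Atf3, whose protein represses or activates stress genes depending on its partner, read 7.07, 6.47 and 9.84 in APAP at 2, 6 and 24 h. In AMAP it read 10.59, 6.78 and 9.67 and in control medium 6.66, 7.03 and 7.73. The AMAP array of 2 h thus held the highest value, and both 6 h treated arrays lay below the 6 h control. Jun, the founding Jun protein and target of the JNK kinases, read 7.96, 7.18 and 9.25 in APAP, 10.42, 7.90 and 10.25 in AMAP and 8.09, 7.999 and 8.82 in control medium. Fos, the partner that forms stable dimers with Jun, read 4.84, 4.76 and 6.28 in APAP, 6.95, 4.97 and 6.95 in AMAP and 5.26, 5.26 and 4.93 in control medium. Both genes stood above all 3 control arrays on the same 3 treated arrays as Atf3.

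**Figure D2:**
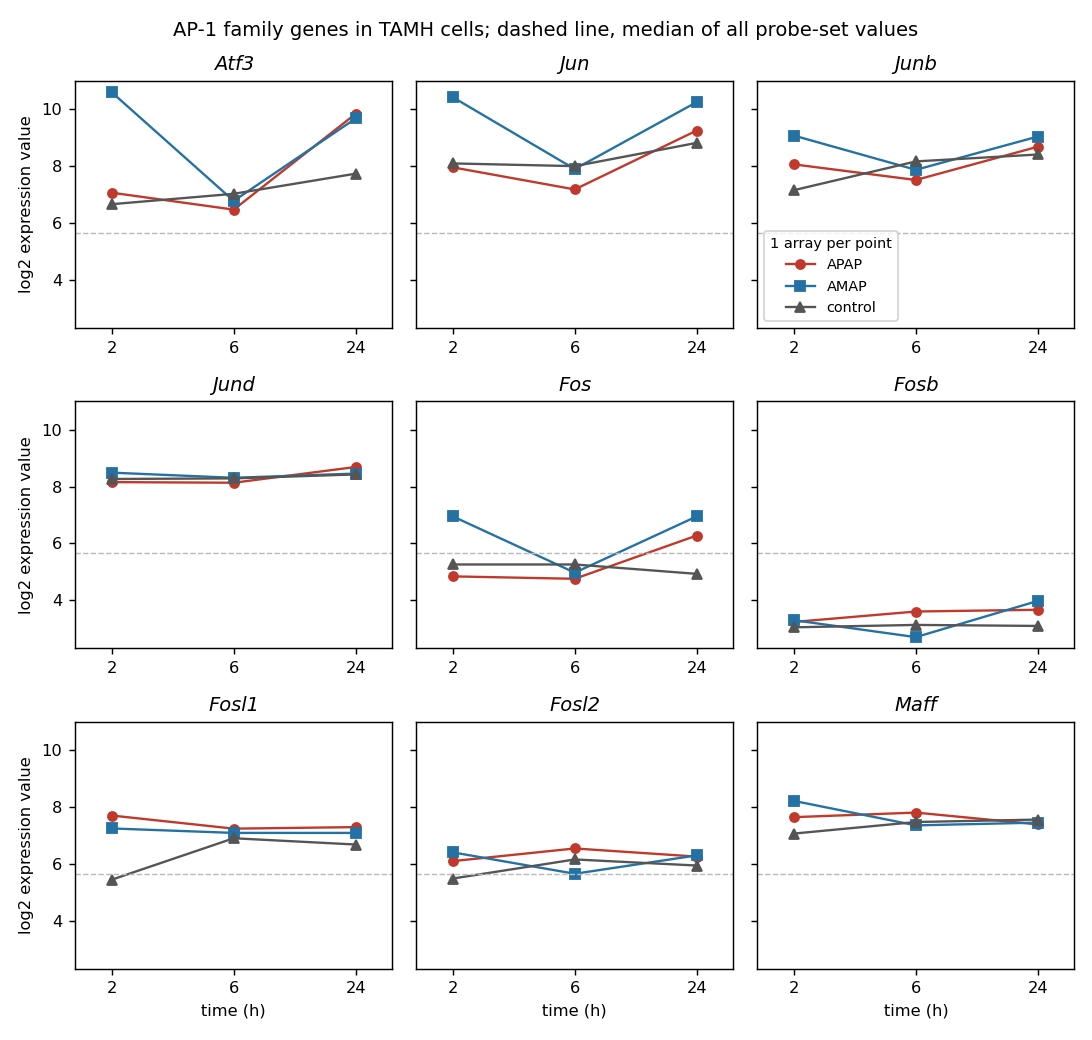
Log2 expression values (y axis) of the 9 genes against time in h, with 1 array per point for APAP, AMAP and control medium. Within AMAP, Atf3, Jun and Fos are higher at 2 and 24 h than at 6 h, and within APAP they are higher at 24 h than at 2 or 6 h. Jund spans 8.13 to 8.69 over all arrays, and the control line of Fosl1 starts at 5.45, its lowest value.

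At 2 h Atf3, Jun, Fos and Junb were at least 2-fold lower in APAP than in AMAP. APAP against AMAP, Atf3 was lower by -3.53 log2, or 11.5-fold, the lowest value of 6707 expressed genes. Jun was lower by -2.46, rank 4 from the lowest, Fos by -2.11 and Junb by -1.01, which median centring of the arrays turned into -0.97, short of 2-fold. They were 4 of 8 measurable members, against 1.27% of all 6776 measurable genes, and 0 were 2-fold higher, against 0.517%. Fosl1 went the other way, with 7.70 in APAP and 7.25 in AMAP, a difference of 0.45. The median over the 9 members was -0.57, and that over the expressed genes 0.00.

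Against control medium of the same time, 6 of 8 measurable members were at least 2-fold higher in AMAP at 2 h, against 1.37% of measurable genes, and 0 were 2-fold lower, against 0.442%. Atf3 was 15.3-fold higher, the highest of all expressed genes, and Jun 5.02-fold, rank 4. Junb, a Jun protein that often restrains Jun, read 9.07 in AMAP and 7.15 in control medium, rank 10 with a difference of 1.92. Fosl1 (Fra-1) was higher by 1.80, Fos by 1.69 and Maff, a small Maf protein that lacks an activation domain, by 1.15. Fosl2 (Fra-2) differed by 0.92 and Jund, the Jun protein that many resting cells hold, by 0.22. All 9 members were above 0, while 45.1% of expressed genes were.

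In APAP at 2 h, 1 of 7 measurable members was at least 2-fold higher than in control medium, against 0.93% of measurable genes, and 0 were 2-fold lower, against 1.14%. That member was Fosl1, 4.77-fold higher, rank 3 of 6707. Junb differed by 0.91, Fosl2 by 0.61, Maff by 0.58 and Atf3 by 0.40, while Jun, at -0.14, Jund, at -0.11, and Fos, at -0.42, lay below control. By the 2-fold rule, Atf3, Jun, Junb, Fos and Maff were thus higher with AMAP and not with APAP, Fosl1 with both, and Jund, Fosb and Fosl2 with neither. For Maff the direct difference, APAP minus AMAP, was -0.57, which is under 2-fold. The 2 comparisons with control share the control array.

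That control array was the lowest of the 3 control arrays for 7 of the 9 genes, all but Jun and Fos. Fosl1 read 5.45 at 2 h, 6.90 at 6 h and 6.68 at 24 h in control medium, and Junb 7.15, 8.17 and 8.41. Fosl2 read 5.49, 6.16 and 5.94 there, and Atf3 was higher at 24 h than at 2 h by 1.07. Set against the highest of the 3 control arrays, AMAP at 2 h was higher by 2.86 for Atf3, 1.69 for Fos and 1.60 for Jun, but by 0.67 for Junb, 0.66 for Maff and 0.34 for Fosl1. APAP at 2 h was higher than that by 0.80 for Fosl1. Against the mean of the 3 control arrays, 4 members were 2-fold higher in AMAP at 2 h, Atf3, Jun, Junb and Fos, and 1 in APAP, Fosl1 at 1.36. This comparison was chosen after the data were seen.

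**Figure D3:**
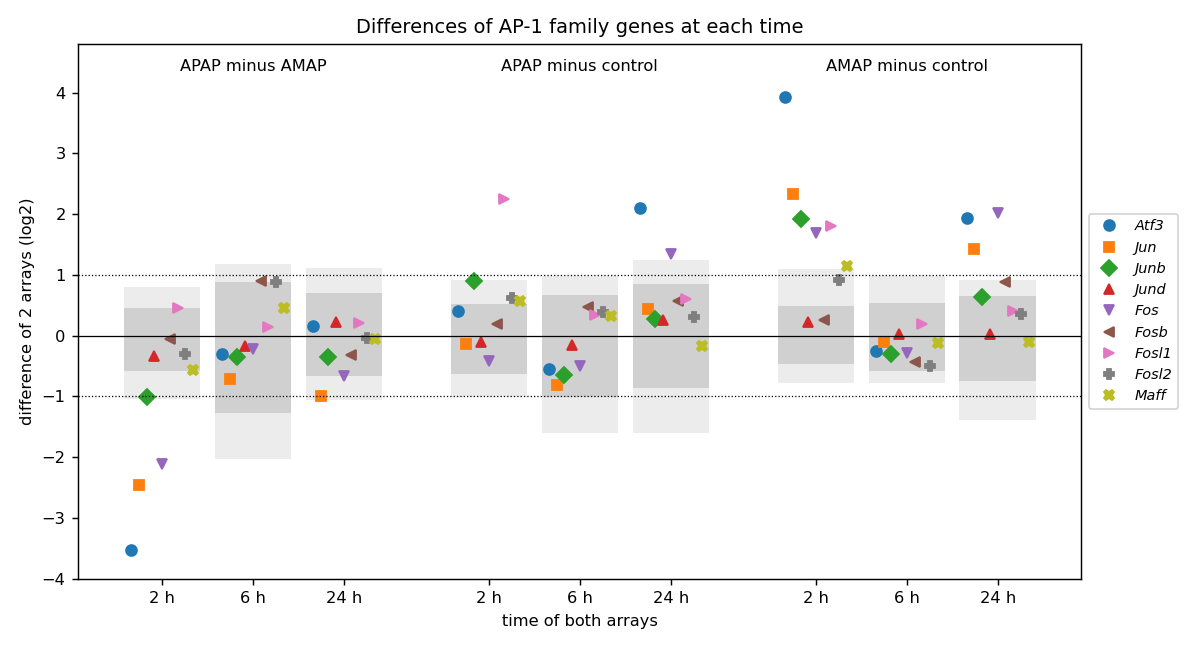
Differences between 2 arrays of the same time in log2 (y axis) for the 9 genes, as APAP minus AMAP, APAP minus control and AMAP minus control. The darker and lighter grey bands hold the middle of 6707 expressed genes from the 5th to the 95th and from the 1st to the 99th percentile, and dotted lines mark 2-fold. At 2 h Atf3 lies at -3.53 for APAP minus AMAP and at 3.93 for AMAP minus control, outside both bands.

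At 6 h no member was 2-fold apart in any of the 3 comparisons, among 7 measurable ones. The background was 3.99% higher and 7.89% lower for APAP against AMAP, 1.69% and 5.14% for APAP against control, and 1.06% and 0.247% for AMAP against control. The lowest differences from control in APAP were those of Jun, -0.82, Junb, -0.65, and Atf3, -0.56. Fosl2 read 6.54 in APAP, 5.65 in AMAP and 6.16 in control medium, a difference of 0.89 for APAP minus AMAP. In AMAP the value at 6 h minus that at 2 h was -3.82 for Atf3, -2.52 for Jun, -1.98 for Fos and -1.20 for Junb. At 6 h these genes lay -0.30 to -0.10 from control in AMAP, where the median over the expressed genes was -0.10.

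At 24 h Atf3 and Fos were at least 2-fold higher than in control medium with both compounds. Atf3 was 4.30-fold higher in APAP than in control medium, rank 5 of the expressed genes, and 3.84-fold higher in AMAP, rank 2. The compounds differed in Atf3 by 0.16. Fos was higher by 1.35 in APAP and by 2.02 in AMAP. For APAP these were the 2 of 8 measurable members that were at least 2-fold higher, against 3.39% of measurable genes. For AMAP there were 3 of 8, with Jun at 1.43, against 0.729%. No member was 2-fold lower, against 3.79% of genes in APAP and 2.62% in AMAP.

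APAP against AMAP at 24 h, 0 of 8 members were 2-fold apart, against 1.82% higher and 1.47% lower among measurable genes. Jun lay at -0.999, just short of the threshold, and Fos at -0.67. Junb read 8.68 in APAP, 9.04 in AMAP and 8.41 in control medium. Maff, which was higher at 2 h, lay below control, at -0.17 in APAP and -0.11 in AMAP. Fosb, a Fos protein known from brain and bone, had its highest value, 3.98, in AMAP at 24 h, still far below the median of all values. The APAP and AMAP arrays of 24 h are among the 3 that stand apart by the dap ratio and lower quartile.

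The second probe sets of Jun and Fosl1 give another reading of the same RNA. The dimmer Jun probe set read 6.59, 5.92 and 8.01 in APAP, 8.11, 6.26 and 8.66 in AMAP and 6.84, 6.49 and 6.83 in control medium. It had the same 3 arrays high, but its 24 h control was not above that of 2 h. At 24 h it was therefore 2-fold higher in APAP, by 1.18, where the brighter one differed by 0.43, so that Jun at 24 h is higher with AMAP alone by the brighter probe set and with both compounds by the dimmer. At 2 h its difference was -1.52 for APAP minus AMAP and 1.27 for AMAP minus control.

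For Fosl1, which has no counterpart to the transactivation domain of Fos, the dimmer probe set read 6.05, 6.21 and 5.93 in APAP, 5.57, 5.57 and 6.25 in AMAP and 3.64, 5.48 and 4.78 in control medium. Both probe sets were lowest in control medium at 2 h and lay above all 3 control arrays in every treated array. At 2 h the dimmer one differed from control by 2.42 in APAP and by 1.94 in AMAP, but its AMAP value stayed under 5.65, so that by this probe set Fosl1 counts as 2-fold higher with APAP and not with AMAP. At 24 h it was higher than control by 1.16 in APAP and by 1.47 in AMAP, against 0.61 and 0.41 by the brighter. Some values of these summaries recur exactly on 2 arrays, as for Fosl1 in AMAP and Fos in control medium.

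**Figure D4:**
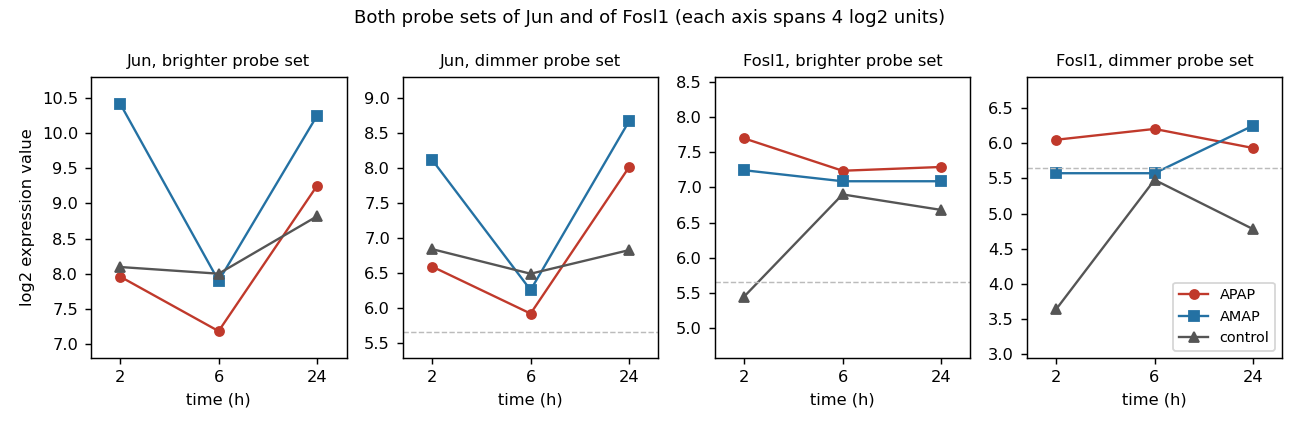
Log2 expression values (y axis) of both probe sets of Jun and of Fosl1 against time in h, 1 array per point, with each axis spanning 4 log2 units. The Jun probe sets share their high arrays but differ in control medium at 24 h, and both Fosl1 probe sets are lowest in control medium at 2 h.

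Jund was the steadiest member, with a range of 0.55 log2 over the 9 arrays, against 4.12 for Atf3, 3.24 for Jun, 2.25 for Fosl1, 2.19 for Fos and 1.92 for Junb. It read 8.16, 8.13 and 8.69 in APAP, 8.49, 8.31 and 8.46 in AMAP and 8.27, 8.29 and 8.43 in control medium. Fosl2 and Maff had ranges of 1.06 and 1.15. Maff read 7.64, 7.80 and 7.39 in APAP, 8.21, 7.35 and 7.45 in AMAP and 7.07, 7.47 and 7.56 in control medium, so that its high array was AMAP at 2 h.

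A fit over all 9 arrays with time as a block asked which members had a treatment difference shared by the 3 times. With limma and Benjamini-Hochberg adjustment over 6707 genes, 0 of the 7 expressed members passed in any contrast, against 0% of all genes. Unadjusted p under 0.05 was reached by 3 members for AMAP against control, by 1 for APAP against control and by 1 for APAP against AMAP, among 30, 514 and 285 of all genes. Over the alternatives tried, the lowest adjusted p of a member was 0.626, 0.468 and 0.643 in these contrasts. The mean difference of Jun, APAP minus AMAP, was -1.39 ± 0.40 (SE), with limma's adjusted p = 0.869. It was lower in APAP at each of the 3 times. Fosl1, APAP minus control, had 1.07 ± 0.34 with an adjusted p = 0.634, and was higher at each time. Atf3, AMAP minus control, had 1.87 ± 0.73 with an adjusted p = 0.9999, and its residual SD of 1.31 log2 was the largest among the members. A fit of slopes on log2 time also passed 0 of 7 members, with 0 of all genes called and 66, 230 and 134 at an unadjusted p under 0.05 for AMAP against control, APAP against control and APAP against AMAP. Its lowest unadjusted p, 0.0387, was for the slope of Atf3 in APAP minus that in AMAP, 0.996 ± 0.40 log2 per doubling of time, with limma's adjusted p = 0.999.

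Expressed genes whose pattern was most like that of 4 members were found by Pearson's r over the 9 arrays, as a description. Atf3 was most like Mdm2, the ligase that limits p53, with r = 0.966, the kinase Plk2 (0.956), the antiproliferative gene Btg2 (0.955), the calcineurin regulator Rcan1 (0.954) and the thiamine carrier Slc19a2 (0.953). Jun was most like Atf3 (0.945), Mdm2 (0.929), the immediate-early gene Egr1 (0.925), Ier5 (0.920) and Btg2 (0.919). Fos, which is not among the expressed genes and so was not ranked, had 0.931 with Jun, above Mdm2. Fos was most like Mdm2 (0.977), the RNA gene Snhg1 (0.935), Atf3 (0.935), Jun (0.931) and Egr1 (0.930). All of these rest on the same 3 high arrays. Fosl1 had other neighbours, led by the epithelial envelope gene Sprr1a (0.955), the keratin Krt18 (0.950), Fez2 (0.946), Anxa1, a phospholipid-binding protein (0.936), and the transcription factor Gata2 (0.934). Its r was 0.302 with Atf3, 0.128 with Jun and 0.138 with Fos, and 0.683 with Fosl2. Mdm2 read 9.28, 9.22 and 10.27 in APAP, 10.60, 9.18 and 10.66 in AMAP and 9.18, 9.32 and 9.32 in control medium. Sprr1a read 8.70, 7.96 and 8.44 in APAP, 8.71, 7.80 and 8.23 in AMAP and 6.07, 7.94 and 7.75 in control medium.

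Krt7, which is also on the list of AP-1 targets, and Krt19, both cholangiocyte markers, also had their highest values in APAP at 2 h and their lowest in control medium at 2 h, as Fosl1 did. Sox9, the other expressed marker of these cells, did not follow, with 6.30 in APAP, 6.22 in AMAP and 6.24 in control medium at 2 h and its highest value, 7.40, in AMAP at 24 h. The summed linear value of the 4 listed markers on the array, as log2, was 10.71, 10.10 and 10.05 in APAP at 2, 6 and 24 h, 9.74, 9.97 and 10.08 in AMAP and 9.27, 9.57 and 9.76 in control medium. Epcam lay below the median on every array, at 4.11 to 4.68. All arrays are of the same hepatocyte line, so these marker values do not show that cholangiocytes were present. The link of the markers with the Fosl1 values was not tested. In bulk RNA, more cells that express a gene and more RNA per cell cannot be told apart.

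Among 30 genes listed as AP-1 targets, 25 were on the array. This list was chosen with earlier results of these data known, so its counts are a description and no independent support for AP-1 activity. In APAP at 2 h, 7 of 14 measurable targets were at least 2-fold higher than in control medium, against 0.93% of all measurable genes. In AMAP it was 5 of 14, against 1.37%, and none was lower with either compound. Over the 14 expressed ones the median difference was 1.02 with APAP and 0.49 with AMAP, and over all expressed genes -0.01 with either. Csf2, a cytokine gene, read 8.46 in APAP, 9.18 in AMAP and 6.22 in control medium at 2 h, and Sprr1a was higher by 2.63 in APAP and by 2.64 in AMAP. Lamb3, a laminin chain, was higher by 2.32 in APAP and by 0.04 in AMAP. Plaur, the urokinase receptor, Hbegf, an EGF receptor ligand, Sprr1a and Csf2 were 2-fold higher with both compounds, Lamb3, Krt7 and Fscn1 with APAP and Ptgs2, the inducible cyclooxygenase, with AMAP. As with Fosl1, Csf2 and Sprr1a were lowest in control medium at 2 h.

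At 24 h, 3 of 17 measurable targets were 2-fold higher in APAP than in control medium, Plaur, Timp1 and Csf2, and 1 lower, Fscn1, against 3.39% and 3.79% of all measurable genes. In AMAP it was 1 of 15 higher, Csf2, and 1 lower, again Fscn1, against 0.729% and 2.62%. At 6 h it was 2 of 16 higher and 1 lower in APAP, against 1.69% and 5.14%, and 1 of 14 higher and 0 lower in AMAP, against 1.06% and 0.247%. Fscn1, an actin bundler with 4 probe sets, of which the brightest is given, differed by -3.04 in APAP at 24 h and by 2.58 in AMAP at 6 h. It read 8.30 in AMAP at 6 h and 7.50, 5.72 and 7.41 in control medium at 2, 6 and 24 h. The difference at 6 h thus rests on the lowest control array. Between the compounds, APAP against AMAP, 3 of 15 were higher and 1 lower at 2 h, against 0.517% and 1.27%. At 6 h 4 of 16 were higher and 2 lower, against 3.99% and 7.89%, and at 24 h 0 of 16 either way, against 1.82% and 1.47%.

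Of 25 other genes with a basic region and zipper, 22 were on the array and 16 measurable at 2 h. Ddit3, the gene of the stress-induced factor CHOP, was the 1 that was 2-fold apart at that time, with 6.33 in APAP, 9.14 in AMAP and 7.42 in control medium. It was thus 2-fold lower than control in APAP and higher in AMAP. In each comparison this is 1 of 16. Of all measurable genes, 1.14% were lower in APAP and 1.37% higher in AMAP than in control medium, and 1.27% lower in APAP than in AMAP. The list's expressed genes had a median of -0.28 for APAP minus AMAP at 2 h, against 0.00 over all expressed genes. For APAP minus AMAP at 6 h, Atf4 had 1.17 by the brightest of its 3 probe sets. Atf2, at -1.66 by the brightest of its 4, Nfe2l2, at -1.16, and Bach1 were 2-fold lower in that comparison. These were 1 of 16 higher and 3 lower, against 3.99% and 7.89% of all measurable genes, and the APAP array of 6 h is among the 3 that stand apart by the dap ratio and lower quartile. The same comparison at 24 h had 1 of 16 past 2-fold, Nfe2l1, which was lower, against 1.47% of all measurable genes. No gene of the list was 2-fold from control at 6 or 24 h with either compound. The shares of all measurable genes were 0.247% to 5.14% at 6 h and 0.729% to 3.79% at 24 h, so 0 of 16 is near the background.

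The next list held upstream kinases and factors. Of 21 listed genes 17 were on the array, and none of 13 measurable ones was 2-fold apart at 2 h in any comparison. The shares of all measurable genes were 0.442% to 1.37% there, so 0 of 13 is near the background. The median was -0.12 for APAP minus AMAP, -0.06 for APAP minus control and 0.16 for AMAP minus control. The stress kinase kinase Map2k6 was lower in APAP at 24 h, at -1.33 from AMAP and -1.18 from control. This was 1 of 13 in each comparison, against 1.47% and 3.79% of all measurable genes. Elk1, which activates Fos transcription, read 6.25 in APAP, 4.76 in AMAP and 5.36 in control medium at 6 h. It was the 1 of 14 that was 2-fold higher in APAP than in AMAP, against 3.99% of all measurable genes. On the other arrays it lay at 4.76 to 5.55, under 5.65, and it has 2 probe sets, of which the brighter is given. Of 10 genes of the turnover of AP-1 proteins or their mRNAs, 8 were measured. None was 2-fold apart at 2 h, which is also near the shares of all measurable genes at that time. Zfp36, which speeds the decay of AU-rich mRNAs, was 2-fold higher at 24 h with both compounds, with 8.33 in APAP, 8.50 in AMAP and 6.85 in control medium. With each compound 1 of 8 was thus higher, against 3.39% of all measurable genes in APAP and 0.729% in AMAP. Fbxw7, of the ligase that degrades Jun, differed by -1.23 from control and by -1.10 from AMAP in APAP at 6 h, and Itch, another Jun ligase, by -1.08 from AMAP. These were 1 of 8 lower than control and 2 of 8 lower than AMAP, against 5.14% and 7.89% of all measurable genes. Fbxw7 has 2 probe sets, of which the brighter is given. That APAP array, which also gave the Elk1 difference, is among the 3 that stand apart by the dap ratio and lower quartile.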

How the data were processed

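The authors deposited log2 values for each probe set, computed by the RMA method (Affymetrix Expression Console is the program that the submitters' processing notes list), from biotin-labelled RNA of 2 dishes per treatment on 430A_2 mouse arrays per the labels' protocols. Its version is not given in the sources used here. The method equalises probe intensities between the arrays of a run, which hides changes in RNA per cell, and compresses differences at low intensity. Whether all 9 arrays were normalized in 1 run is not given either, and their quartiles differ. A gene was represented by its brightest probe set with 1 symbol by its mean, for 12393 genes in all and 6707 expressed. Groups came from the titles. Genes 2-fold apart at each time were counted. Treatment was fitted with time as a block in limma 3.58.1 (R 4.3.3), with 4 residual degrees of freedom, and slopes on log2 time with 2. These fits were tested on simulated data, with shifts in AMAP that were equal at all times or linear in log2 time. At shifts of 0.5, 1 and 2 log2 the shared fit recovered 4%, 56% and 92%. The slope fit recovered 2%, 70% and 94% at these sizes per doubling of time. A shift present at 2 and 24 h but not at 6 h was not simulated. Adjusted p under 0.05 was called. The members and the lists of related genes were chosen with earlier results of these data known. Named genes were the 9 members, the 5 expressed genes most like each of Atf3, Jun, Fos and Fosl1, and up to 4 genes per related list with the largest difference among those 2-fold apart. Other genes in the text, such as Plaur, Bach1 and Nfe2l1, were named after their values were seen. Alternatives covered the threshold, the filter, the probe sets, normalization, variance priors and the arrays in the fit. With 1 array per group, precision is set by that number.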

Additional observations from a re-analysis of the deposited data

How the results depend on the processing

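The counts of members 2-fold apart kept within 1.5 times of their values in all but 9 cases. Most of these counts were 0, and a 0 that stayed 0 is among the kept ones. So is the fall from 6 to 4 members higher in AMAP than in control at 2 h with the mean of the 3 control arrays. At 1.5-fold, 3 members were higher in APAP than in control at 2 h in place of 1, and 2 were lower at 6 h in place of 0. APAP against AMAP at that threshold gave 1 higher and 1 lower at 6 h and 2 lower at 24 h, each in place of 0. Cyclic loess and median centring each gave 1 lower at 24 h, Jun, whose difference lies at the threshold. With the mean of the 3 control arrays, added after the data were seen, APAP at 6 h had 1 lower member, and with the other probe sets of Jun and Fosl1, also added later, APAP at 24 h had 4 higher members in place of 2. Of 180 recomputed differences of single members, 179 moved by less than the gene's residual SD and none that was 2-fold apart changed sign. The exception was Fosb for APAP against AMAP at 6 h, 0.52 under cyclic loess. The residual SD is that of the shared fit, which counts treatment by time as spread and reached 1.31 log2 for Atf3. Median centring moves all genes of an array by the same amount. This yardstick is wide, so the count says little about stability. Median centring put Junb at -0.97 for APAP minus AMAP at 2 h, which left 3 members lower in place of 4. No member passed limma's shared or slope fit under the alternatives run for it. For the shared fit alone these included leaving out each time (0 members each) and the 3 arrays with a low dap ratio. The lowest adjusted p of a member was 0.468 in the shared fit and 0.911 in the slope fit.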
